A study of Homo sapiens with 12 samples.

Results

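The genes described here are 59 neighbours on the distal short arm of human chromosome 4, from ZNF721 near the telomere to DHX15. They were chosen as a stretch in which most genes had lower levels in 2 of 3 receptor-transfected cultures than in control cells under vehicle. The vehicle values therefore describe the choice and carry no test. Of the 59 genes, 54 were detected on at least 3 of 12 arrays and were tested among 15249 genes. PCGF3, CPLX1, SPON2, CRMP1 and PROM1 were detected on 0 arrays and have no value below. Order along the chromosome follows the RefSeq annotation of GRCh38.p14.

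The cells were EA.hy926, a human line that arose from the fusion of an endothelial cell of the umbilical vein with a lung carcinoma cell and which per the labels makes no estrogen receptor alpha. Receptor cells carried the human receptor on the plasmid pCMV3-ERalpha and control cells the backbone vector pCDNA 3.1. Both lines were stably selected with puromycin from single colonies, kept without serum for 24 h, and treated for 16 h with ethanol vehicle or with 17-beta-estradiol at 10 nM. There were 4 groups, and each of them (control vehicle, control estradiol, receptor vehicle, receptor estradiol) held 3 Illumina BeadChip arrays, described by the study as biological replicates. The labels do not say whether replicate numbers are clones or separate cultures of the same cells, so p-values measure the spread between these samples. A receptor culture here means the vehicle and the estradiol array of the same replicate number. Those arrays deviated together from their group means, with correlations across genes of 0.76, 0.39 and 0.67 for numbers 1, 2 and 3.

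These genes share a place on the chromosome and not a pathway. Loss of the terminal part of this arm from 1 chromosome copy causes Wolf-Hirschhorn syndrome, and WHSC1 (now NSD2, a histone H3 lysine 36 methyltransferase), WHSC2 (now NELFA, a subunit of the complex that pauses RNA polymerase II) and LETM1 (a mitochondrial inner membrane protein) lie in that region. HTT encodes huntingtin, the protein of Huntington disease, and FGFR3 the fibroblast growth factor receptor mutated in achondroplasia.

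The sequence before the start site is shown for 4 members with contrasting values. HS3ST1 was the lowest member in cultures 2 and 3, ADD1 was lower in culture 2 while culture 1 stayed with the controls, and MSX1 and TACC3 were among the highest. ADD1 was picked after its values were seen. Each sequence is the 250 bases before the RefSeq start on GRCh38.p14, read 5' to 3' on the gene's strand, and capitals mark GGTCA or its reverse complement TGACC. HS3ST1 lies on the minus strand (chr4:11428895-11429144). ADD1 (chr4:2843594-2843843), MSX1 (chr4:4859415-4859664) and TACC3 (chr4:1720381-1720630) lie on the plus strand.
HS3ST1: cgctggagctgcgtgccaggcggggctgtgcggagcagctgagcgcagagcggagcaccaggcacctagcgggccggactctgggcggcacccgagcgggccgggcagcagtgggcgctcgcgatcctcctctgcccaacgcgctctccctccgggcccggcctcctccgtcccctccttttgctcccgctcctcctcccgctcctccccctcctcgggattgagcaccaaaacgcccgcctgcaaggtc
ADD1: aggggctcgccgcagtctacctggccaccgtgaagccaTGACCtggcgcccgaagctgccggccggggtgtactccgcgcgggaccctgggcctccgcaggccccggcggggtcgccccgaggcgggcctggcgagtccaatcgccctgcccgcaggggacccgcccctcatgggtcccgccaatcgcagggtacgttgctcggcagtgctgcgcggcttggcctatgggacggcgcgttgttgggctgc
MSX1: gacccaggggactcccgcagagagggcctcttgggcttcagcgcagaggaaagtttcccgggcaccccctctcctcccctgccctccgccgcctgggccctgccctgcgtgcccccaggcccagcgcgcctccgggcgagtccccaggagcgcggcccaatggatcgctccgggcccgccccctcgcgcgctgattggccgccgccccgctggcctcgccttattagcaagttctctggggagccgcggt
TACC3: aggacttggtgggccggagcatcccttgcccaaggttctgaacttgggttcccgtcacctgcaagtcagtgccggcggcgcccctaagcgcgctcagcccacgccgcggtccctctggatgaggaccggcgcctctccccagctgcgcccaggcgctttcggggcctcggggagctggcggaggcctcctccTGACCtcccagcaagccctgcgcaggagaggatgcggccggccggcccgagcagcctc

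The letters GGTCA are the arm of the estrogen response element, a palindrome bound by estrogen receptors that reads GGTCA, any 3 bases, then TGACC. A promoter sequence was given for 51 of the 59 genes. The full palindrome occurred in 0 of these 51 and in 12 of 27305 promoters of the whole annotation (0.0439%), searched on both strands. The arm alone occurred in 14 of 51 (27.5%) against 33.1% of all promoters, among them ADD1 and TACC3 with 1 copy each and not HS3ST1 or MSX1. The GC box GGGCGG was in 38 of 51 (74.5%) against 42.3% of all promoters. The CCAAT box was in 15 (29.4%) against 33%, and TATAAA in 2 (3.92%), SPON2 and TBC1D14, against 11.1%. The 51 promoters had a median GC content of 71.6% and a median of 28 CpG pairs, against 58% and 11 for all promoters. A match describes letters in this window and does not show binding.

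Between 18441 and 19747 probes were detected per array. The array's ESR1 probe, which stands for the transfected gene, had 0 detections over 12 arrays. Where it lies relative to the plasmid's insert was not examined, so it does not check the labels. Of 13 endothelial markers 11 were detected on at least 3 arrays, with CLDN5 and EMCN on 0. The summed level of the endothelial markers on the linear scale was 16440 to 18459 in control cells under estradiol and 18874, 12866 and 15375 in receptor cultures 1, 2 and 3. Epithelial markers, 8 of 9 detected with CDH1 on 0 arrays, summed to 4069 to 4263 in those controls and to 4848, 7793 and 7906 in the cultures. Of the leukocyte markers 4 were detected, with PTPRC and CD3E on 0 arrays, and those 4 summed to 1159 to 1384 in the controls and to 1188, 932 and 816 in the cultures. For smooth muscle and fibroblast markers, 2 of 9 detected with MYH11, CNN1, DES, COL3A1 and PDGFRB on 0 arrays, the sums were 2944 to 3010 in the controls and 3360, 2983 and 3726 in the cultures. The epithelial sums of all 3 cultures lay above the control range. The endothelial sums of cultures 2 and 3 lay below it and that of culture 1 above it. The leukocyte sums of cultures 2 and 3 lay below the control range. A linear sum follows its brightest markers. The median endothelial difference from control under estradiol was 0.04, -0.51 and -0.22 log2 in cultures 1, 2 and 3. VWF was at 1.04, -1.33 and -0.95 there and NOS3 at -0.71, -1.20 and -0.71. CDH5 was at 0.10, -0.13 and 0.21, and THBD at 0.12, 0.13 and 0.06. The median leukocyte difference from control under estradiol was 0.33, 0.08 and 0.19 log2 in cultures 1, 2 and 3. CD68 was at -0.16, -0.52 and -0.74 there and ITGAX at 1.41, 1.07 and 0.92. Epithelial medians were 0.52, 0.79 and 0.94, while MUC1 was at -1.20, -1.34 and -0.75. EPCAM in culture 3 (-0.72) and KRT7 in culture 1 (-0.38) were also lower. The 2 detected smooth muscle and fibroblast markers differed in direction. ACTA2 was at 0.19, 0.02 and 0.34 in cultures 1, 2 and 3, and TAGLN, the dimmer, at -0.55, -0.66 and -0.34. The part of these differences in the 4p values was not tested.

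On the vehicle arrays that chose the genes, the median difference of the 54 genes from the control mean was 0.07, -0.42 and -0.43 on the log2 scale in receptor cultures 1, 2 and 3. In culture 1, 22 of 54 lay below the control mean, and 46 of 54 lay below it in both cultures 2 and 3. MSX1, TACC3, NCAPG and TMEM128 lay above it in cultures 2 and 3. The lowest members under vehicle were AFAP1, an actin filament adaptor, at -0.82, -1.37 and -1.25, and HS3ST1, a heparan sulfate sulfotransferase, at -0.74, -1.14 and -1.24 in cultures 1, 2 and 3.

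The estradiol arrays come from the same cultures, and the genes were listed with earlier results of these data known. Lower values in cultures 2 and 3 there follow in part from the choice, so the counts of genes below are a description and no independent check of it. The p-values of single genes show which of them lay beyond the spread of the control arrays. The median difference from control under estradiol was 0.03, -0.47 and -0.34 in cultures 1, 2 and 3, and the median of all 15249 genes was -0.03, -0.01 and -0.004. At an adjusted p under 0.05 (limma, Benjamini-Hochberg over all genes), 29 of 54 genes were lower in culture 2 and 1 was higher, where 8.87% of all genes were called lower and 8.46% higher. In culture 3, 13 of 54 were lower and 1 was higher, against 4.41% and 3.90% of all genes. In culture 1, 4 were lower and 6 higher, against 10.0% and 9.84% of all genes. The count in culture 3 was 20 to 23 under 6 other settings of the processing, while that in culture 2 stayed between 22 and 31 under every alternative run. The shares of all genes called under those settings are not given, so these changes are not read as results about the members. Each culture is 1 array set against 3 control arrays and is taken to vary as control arrays do. An array averages all cells of a culture, so less RNA from every cell and loss from a fraction of cells cannot be told apart.

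**Figure D1:**
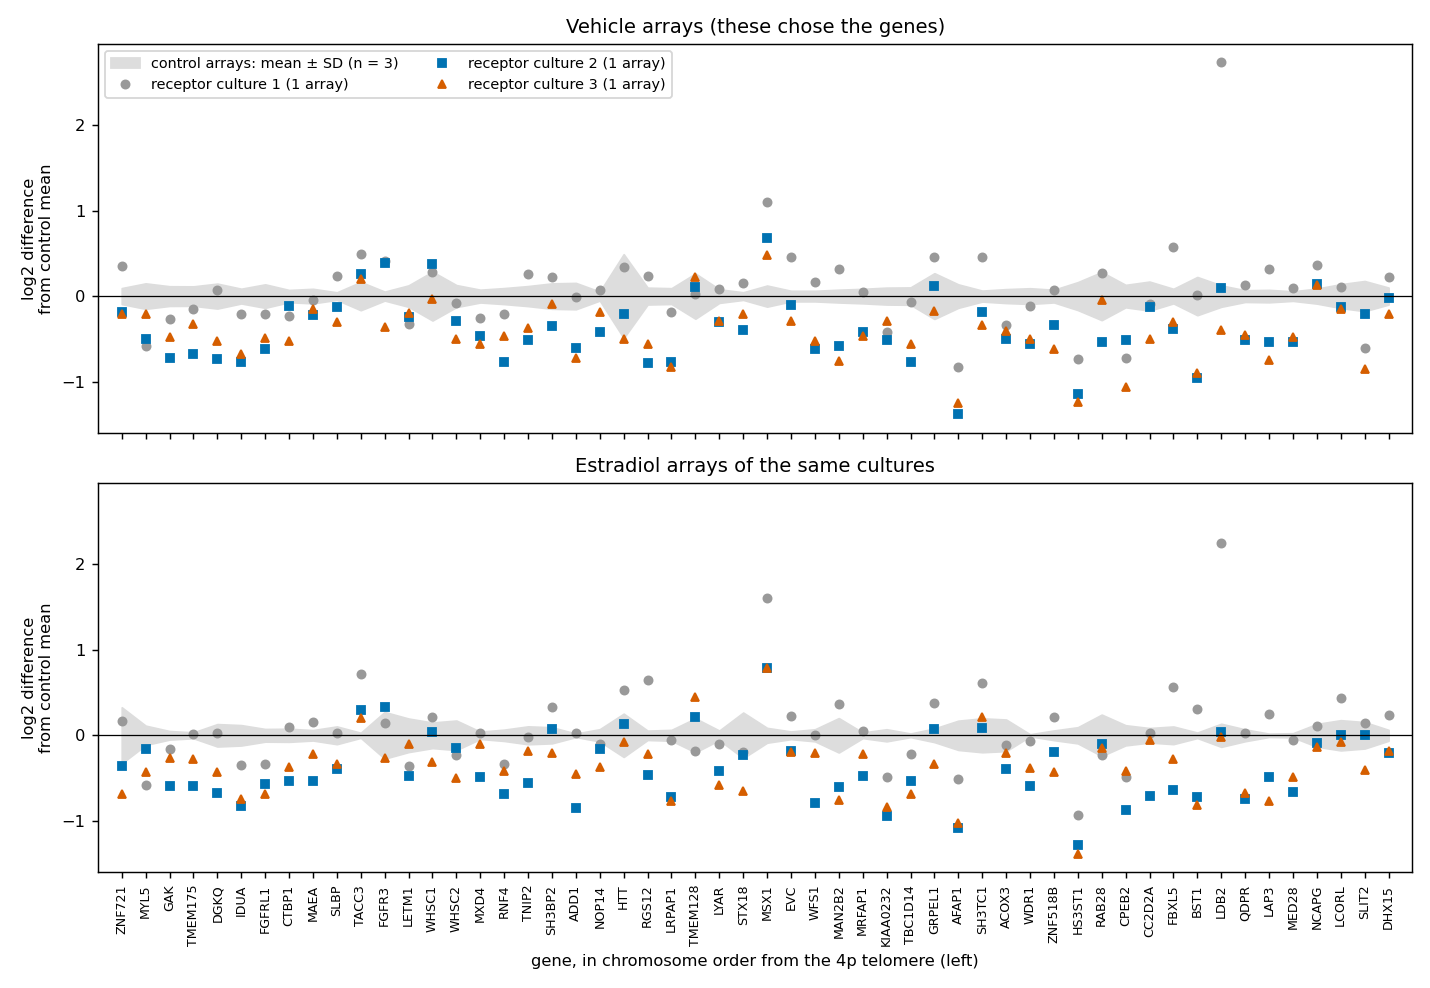
Difference of each receptor culture from the control mean (log2, vertical axis) for the 54 tested genes in chromosome order (horizontal axis), on vehicle arrays above and estradiol arrays below. Points are single arrays and the grey band is the control mean ± SD (n = 3); the median of cultures 2 and 3 is -0.42 and -0.43 above and -0.47 and -0.34 below, and that of culture 1 is 0.07 and 0.03.

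The values of cultures 2 and 3 are set against the same 3 control arrays, so they are given side by side and their likeness is not counted. The numbers of genes below the control mean were 22, 43 and 50 of 54 in cultures 1, 2 and 3, against 53.2%, 51.8% and 50.6% of all genes. Culture 2 was the lowest of 5 estradiol arrays (3 controls, culture 1 and itself) for 37 genes (25.3% of all genes), and culture 3 in the same way for 41 (23.1% of all genes).

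The counts by role below stand beside 53.7% and 24.1% of the tested members called lower in cultures 2 and 3. Of all genes, 8.87% and 4.41% were called lower there. The roles hold few genes each, and differences between them were not tested. Of 6 tested genes of the cell surface and the secretory pathway, 5 were lower in culture 2 and 3 in culture 3. Their medians were 0.01, -0.72 and -0.49 in cultures 1, 2 and 3. HS3ST1 makes the heparan sulfate pattern that binds antithrombin. Its normalized log2 level was 7.53, 7.72 and 7.63 in control cells under estradiol and 6.70, 6.34 and 6.23 in receptor cultures 1, 2 and 3. All 3 cultures lay below all controls, by 1.91-, 2.44- and 2.63-fold (SE 0.15 log2; adjusted p = 0.00472, 0.00175 and 0.00146). LRPAP1 encodes RAP, a chaperone in the endoplasmic reticulum for receptors of the LDL receptor family. It was at 9.17, 9.23 and 9.29 in controls and at 9.18, 8.51 and 8.46 in the cultures. Culture 1 lay inside the control range, and cultures 2 and 3 were 1.64- and 1.70-fold lower (adjusted p = 0.00716 and 0.00845). WFS1, the endoplasmic reticulum protein lost in Wolfram syndrome, was at 8.06, 8.05 and 8.18 in controls and at 8.10, 7.30 and 7.89 in the cultures. It was 1.74-fold lower in culture 2 (adjusted p = 0.00414), and its difference of -0.21 in culture 3 did not pass (adjusted p = 0.324).

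BST1, the surface enzyme CD157, was near the detection limit. It was at 5.14, 5.08 and 5.09 in controls, all detected, and at 5.41 in culture 1, also detected. In cultures 2 and 3 it was at 4.38 and 4.28 and not detected, so it was at least 1.18- and 1.16-fold lower there (adjusted p = 0.0211 and 0.0212). EVC and CC2D2A, genes of the primary cilium, had culture 2 differences of -0.19 and -0.71, of which only the second passed. They were picked after their values were seen.

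Lysosomal, mitochondrial and metabolic genes gave 5 of 8 lower in culture 2 and 4 in culture 3, with medians of 0.02, -0.54 and -0.51. IDUA, the lysosomal alpha-L-iduronidase that degrades heparan and dermatan sulfate, was at 8.38, 8.61 and 8.44 in controls and at 8.13, 7.64 and 7.73 in the cultures. All cultures lay below the controls, and cultures 2 and 3 were 1.78- and 1.68-fold lower (adjusted p = 0.00583 and 0.0133), while culture 1 was at -0.35 and did not pass. Culture 1 passed in the authors' normalized table (-0.27), without background correction (-0.27) and with an offset of 50 (-0.31). It also passed with the spread also taken from the receptor cultures (-0.32). MAN2B2, an alpha-mannosidase of the lysosome, was at 9.28, 8.88 and 9.11 in controls and at 9.46, 8.48 and 8.33 in the cultures. Culture 1 lay above all controls and the others below all of them, 1.52- and 1.69-fold lower than the control mean (adjusted p = 0.0352 and 0.0249). The culture 2 call was lost on leaving out any of 5 control arrays (adjusted p from 0.05 to 0.0679) or without the detection filter (adjusted p = 0.0525), and the culture 3 call without estradiol control 3 (adjusted p = 0.0552). QDPR regenerates tetrahydrobiopterin, the cofactor of nitric oxide synthase and of aromatic amino acid hydroxylases. It was at 9.12, 9.13 and 9.24 in controls and at 9.19, 8.42 and 8.49 in the cultures. Cultures 2 and 3 were 1.67- and 1.6-fold lower (adjusted p = 0.00556 and 0.0119), with culture 1 inside the control range.

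**Figure D2:**
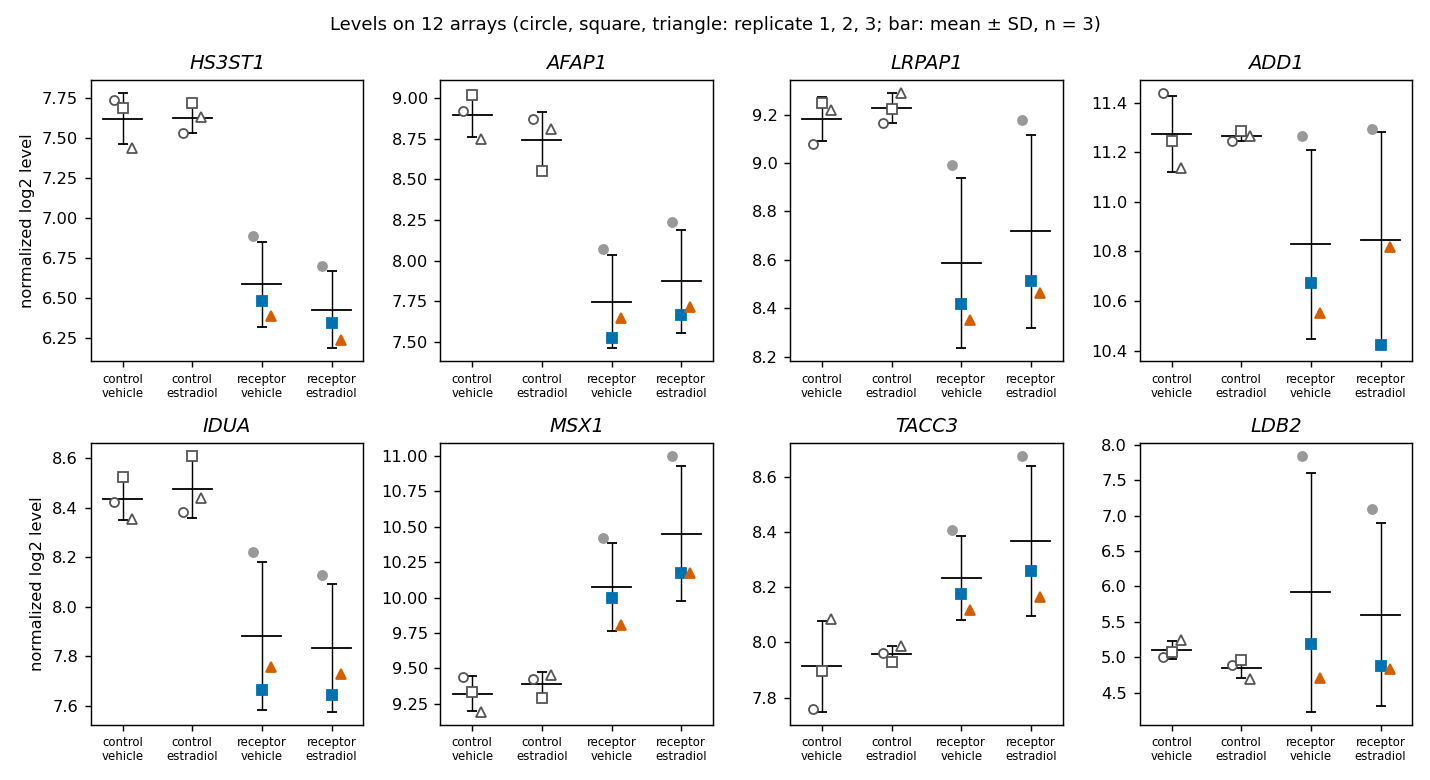
Normalized log2 level (vertical axis) of 8 genes on all 12 arrays, in 4 groups (horizontal axis); symbols are single arrays and bars are the mean ± SD (n = 3). HS3ST1, AFAP1 and IDUA are below the estradiol controls in every receptor culture, LRPAP1 and ADD1 only in cultures 2 and 3, MSX1 and TACC3 are above them in every culture, and LDB2 is raised in culture 1 (7.09 under estradiol).

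Cytoskeletal genes were lower in culture 2 for 3 of 4 and in culture 3 for 1. AFAP1, which cross-links actin filaments and binds Src, was at 8.87, 8.55 and 8.81 in controls and at 8.24, 7.66 and 7.72 in the cultures. Cultures 2 and 3 were 2.12- and 2.04-fold lower (adjusted p = 0.00449 and 0.00797), and all 3 cultures lay below all controls. ADD1, the alpha subunit of adducin at the spectrin-actin junction, was at 11.25, 11.29 and 11.27 in controls and at 11.29, 10.42 and 10.82 in the cultures. It was 1.80-fold lower in culture 2 (adjusted p = 0.00593), at -0.45 in culture 3 (adjusted p = 0.0844) and at 0.03 in culture 1. WDR1, which promotes actin filament disassembly, was 1.51-fold lower in culture 2 (adjusted p = 0.0122), and MYL5, a myosin light chain, was 1.5-fold lower in culture 1 (adjusted p = 0.0277), and its values of -0.16 and -0.43 in cultures 2 and 3 did not pass. ADD1, WDR1 and MYL5 were picked after their values were seen.

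Among 11 genes of transcription and chromatin, 4 were lower in culture 2 and 2 in culture 3, with 1 higher in each. CTBP1, a transcriptional corepressor, was at 9.97, 9.82 and 9.92 in controls and at 10.00, 9.37 and 9.54 in the cultures. It was 1.45-fold lower in culture 2 (adjusted p = 0.0194) and at -0.37 in culture 3 (adjusted p = 0.104). The culture 2 call was lost when the spread was also taken from the receptor cultures (-0.32, adjusted p = 0.167). The culture 3 difference passed in the authors' normalized table (-0.33), without background correction (-0.33) and with an offset of 50 (-0.35). It also passed with median scaling (-0.54) and a trended prior. WHSC2 was at 6.36, 6.03 and 6.25 in controls and at 5.98, 6.06 and 5.71 in the cultures, with differences of -0.15 and -0.50 in cultures 2 and 3 that did not pass. The latter passed with median scaling (-0.63) and with the spread also taken from the receptor cultures (-0.50). WHSC1, detected on 9 of 12 arrays, was at 5.06, 5.13 and 4.84 in controls and at 5.22, 5.06 and 4.70 in the cultures, which overlap the controls. ZNF721, the member nearest the telomere, was at 6.92, 6.27 and 6.52 in controls and at 6.74, 6.21 and 5.88 in the cultures. Its difference of -0.69 in culture 3 did not pass (adjusted p = 0.0961), and it passed without estradiol control 2 (adjusted p = 0.0437). It also passed without background correction (-0.32), with an offset of 50 (-0.48), with median scaling (-0.84) and with a trended prior. With the spread also taken from the receptor cultures it passed too (-0.59).

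All 3 genes of the ubiquitin pathway were lower in culture 2 and 0 in culture 3. RNF4, a ubiquitin ligase for SUMO-modified proteins, was at 8.65, 8.77 and 8.67 in controls and at 8.36, 8.01 and 8.28 in the cultures. Every culture lay below every control, and culture 2 was 1.61-fold lower (adjusted p = 0.00842). Its values in cultures 1 and 3 were -0.34 and -0.42 (adjusted p = 0.0893 and 0.0751). FBXL5, the iron-sensing F-box protein, was 1.56-fold lower in culture 2 (adjusted p = 0.0133) and 1.48-fold higher in culture 1 (adjusted p = 0.0188). It was picked after its values were seen, as was TBC1D14 among the trafficking genes.

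Signalling genes were lower in culture 2 for 4 of 7 and in culture 3 for 1. That gene was FGFRL1, an FGF receptor without a kinase domain, at 8.30, 8.16 and 8.18 in controls and at 7.88, 7.65 and 7.53 in the cultures. All cultures lay below the controls, with cultures 2 and 3 1.48- and 1.61-fold lower (adjusted p = 0.0257 and 0.0203). The culture 2 call was lost without estradiol control 1 (adjusted p = 0.0600). FGFR3 itself was detected on 4 of 12 arrays and its differences of 0.14, 0.33 and -0.26 have no reliable order. SLIT2, the secreted guidance ligand of ROBO receptors, was at 8.60, 8.36 and 8.65 in controls and at 8.69, 8.54 and 8.14 in the cultures. The 0.15, -0.002 and -0.40 of cultures 1, 2 and 3 did not pass.

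RNA-processing genes gave 1 of 4 lower in culture 2 and 0 in culture 3. CPEB2, which controls translation through the cytoplasmic polyadenylation element, was at 6.24, 6.06 and 6.03 in controls and at 5.62, 5.24 and 5.69 in the cultures. It was 1.40- and 1.83-fold lower in cultures 1 and 2 (adjusted p = 0.0465 and 0.00657) and at -0.42 in culture 3 (adjusted p = 0.117). The culture 1 call was lost on leaving out any of 5 control arrays (adjusted p from 0.0544 to 0.0975) and under 7 other settings, with the smallest value, -0.19, without background correction (adjusted p = 0.0943). SLBP, the histone mRNA stem-loop binding protein, was at 9.70, 9.91 and 9.80 in controls and at 9.83, 9.42 and 9.46 in the cultures. Cultures 2 and 3 lay below all controls at -0.39 and -0.34 without passing (adjusted p = 0.0629 and 0.131). Both passed in the authors' normalized table (-0.35 and -0.31), without background correction and with a trended prior. DHX15, the splicing helicase that ends the list, was at 10.79, 10.70 and 10.82 in controls and at 11.01, 10.56 and 10.58 in the cultures, and 0 of its 3 differences passed.

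Among 5 membrane-trafficking genes 2 were lower in culture 2 and 1 in culture 3. TBC1D14, a regulator of Rab GTPases in autophagy, was the gene lower in both, by 1.45- and 1.61-fold (adjusted p = 0.0195 and 0.0117). HTT was detected on 9 of 12 arrays, at 5.03, 4.89 and 5.38 in controls and at 5.63, 5.23 and 5.02 in the cultures, which overlap. KIAA0232, a gene without an assigned role here, was at 6.20, 6.31 and 6.33 in controls and at 5.79, 5.34 and 5.44 in the cultures. It was 1.40-, 1.92- and 1.79-fold lower in cultures 1, 2 and 3 (adjusted p = 0.0287, 0.00296 and 0.00624). The culture 1 call was lost without estradiol control 2 or 3 (adjusted p = 0.0639 and 0.0631) and with a trended prior (adjusted p = 0.0506). It was also lost in the authors' normalized table (-0.21, adjusted p = 0.0659), without background correction (-0.21, adjusted p = 0.0639) and with median scaling (-0.19, adjusted p = 0.381).

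Some members stood apart from the rest. MSX1, a homeobox transcription factor, was at 9.42, 9.29 and 9.45 in controls and at 11, 10.17 and 10.18 in the cultures. It was higher in all 3, by 3.05-, 1.72- and 1.73-fold (adjusted p = 0.000259, 0.00743 and 0.0111), and was the 1 member higher in cultures 2 and 3. Its culture 3 call was lost with median scaling (0.63, adjusted p = 0.0546). TACC3, which stabilises the mitotic spindle, was at 7.96, 7.93 and 7.99 in controls and at 8.68, 8.26 and 8.16 in the cultures. All cultures lay above the controls, and culture 1 was 1.64-fold higher (adjusted p = 0.0103). The other cell division gene, NCAPG of the condensin complex, was at 8.92, 8.75 and 9 in controls and at 9, 8.81 and 8.76 in the cultures, which overlap.

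SH3TC1 was 1.52-fold higher in culture 1 (adjusted p = 0.0295), at 6.90, 6.51 and 6.62 in controls and 7.29, 6.77 and 6.89 in the cultures. That call was lost without estradiol control 2 or 3 (adjusted p = 0.0582 and 0.0615). TMEM128, detected on 10 arrays, was at 4.78, 5.09 and 5.15 in controls and at 4.83, 5.22 and 5.46 in the cultures, and 0 of its differences passed. LDB2, a cofactor of LIM-homeodomain proteins, was at 4.88, 4.96 and 4.70 in controls and at 7.09, 4.88 and 4.83 in the cultures. Of those controls 2 of 3 were detected, close to the detection limit, so the size of the difference is uncertain. Culture 1 was 4.74-fold higher than their measured mean (adjusted p = 8.06e-05) and the other cultures lay within the control range. Under vehicle LDB2 was at 7.84 in culture 1 and at 5.00 to 5.24 in controls. LDB2 was picked after its values were seen.

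Medians differed with signal, which was not tested. The 35 members with a mean normalized log2 level of 7 or more had medians of 0.03, -0.54 and -0.38 in cultures 1, 2 and 3, and the 19 below that level had 0.14, -0.15 and -0.20. For the 9 genes detected on fewer than 12 arrays the medians were 0.31, 0.04 and -0.21. Of the tested members, 17 had further detected probes. Of these 19 further probes, 14 lay below the control mean in culture 2 and 16 in culture 3, against 51.8% and 50.6% of all genes. Their medians were 0.004, -0.20 and -0.27 in cultures 1, 2 and 3. They measure the same chosen genes on the same arrays and are no independent check.

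The cultures were also set against each other on the estradiol arrays, a contrast along which the genes had been chosen, so the counts describe it and do not test it anew. Relative to culture 1, 11 of 54 genes were lower in culture 2 and 0 higher, against 1.80% and 1.47% of all genes. For culture 3 the counts were 10 lower and 0 higher, against 6.33% and 5.42% of all genes. Between cultures 2 and 3, limma called 0 of 54 genes and 0.00% of all genes either way, with 7 members and 2638 genes at an unadjusted p under 0.05. The lowest adjusted p was 0.115, for WFS1, which was 0.59 log2 higher in culture 3 (SE 0.14).

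Among the named genes, QDPR was lower than in culture 1 by 1.70-fold in culture 2 and 1.63-fold in culture 3 (adjusted p = 0.0306 and 0.0215). MAN2B2 was lower by 1.96- and 2.18-fold (adjusted p = 0.0376 and 0.0130), and BST1 by at least 1.47- and 1.43-fold (adjusted p = 0.0341 and 0.0139). LRPAP1 passed for culture 3 (1.64-fold, adjusted p = 0.0229) and not for culture 2 (-0.67, adjusted p = 0.0527). MSX1 was higher than control in every culture and yet lower than culture 1 by 1.78- and 1.77-fold in cultures 2 and 3 (adjusted p = 0.0365 and 0.0198). HS3ST1, AFAP1, KIAA0232 and IDUA, which lay below all controls in every culture, were called in 0 of these culture differences. For culture 2 the count fell from 11 to between 4 and 8 when any single control array was left out, and it was 18 to 35 under 7 other settings. The shares of all genes in those runs are not given beside these counts. Both comparisons share the array of culture 1, and each sets 1 array against 1.

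Taking the 3 receptor arrays as a group, as the labels do, 6 of 54 genes were lower under estradiol and 1 was higher than in control cells, against 4.36% and 3.24% of all genes. The median difference was -0.26 log2. HS3ST1 was lower by 2.30-fold (-1.20, SE 0.16, adjusted p = 0.000588), AFAP1 by 1.83-fold (adjusted p = 0.0106), KIAA0232 by 1.69-fold (adjusted p = 0.00342), IDUA by 1.56-fold (adjusted p = 0.0306), CPEB2 by 1.51-fold (adjusted p = 0.0388) and FGFRL1 by 1.44-fold (adjusted p = 0.0309). MSX1 was 2.08-fold higher (1.06, SE 0.21, adjusted p = 0.00901). With median scaling HS3ST1 alone kept its call, and that of MSX1 was lost (1.07, adjusted p = 0.103). With the replicate number as a block within each line, CPEB2 no longer passed (adjusted p = 0.0726). The count of 6 was 2 without estradiol control 1 or receptor culture 2, 3 without estradiol control 2 or 3, and 9 at most when another array was left out. The shares of all genes in those runs are not given here. LRPAP1 was 1 of the genes that did not pass in the group fit (-0.51, adjusted p = 0.141), where culture 1 lay apart from the others. Without culture 1 its difference was -0.74 (adjusted p = 0.0225). The genes were chosen for lower values in cultures 2 and 3, so leaving out culture 1 is no independent check. In 14 of 54 genes all receptor arrays lay below all control arrays under estradiol (15.1% of all genes), and in 2, MSX1 and TACC3, all lay above (12.2% of all genes).

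Estradiol itself moved 0 of the 54 genes past the threshold. In the group fit, which does not pair the arrays of a culture, limma called 0.0721% of all genes for estradiol over vehicle in receptor cells. It called 0.00% in control cells and 0.0328% for the difference between those responses. The share of all genes with the culture as a block is not given. At an unadjusted p under 0.05 the members numbered 1, 0 and 0, and all genes 527, 351 and 437. The single member was KIAA0232, at 5.87, 5.78 and 6.00 in receptor cells under vehicle and 5.79, 5.34 and 5.44 under estradiol. All 3 cultures were lower with estradiol, by 0.36 log2 on average (SE 0.13, unadjusted p = 0.0152, adjusted p = 1), and in control cells its difference was -0.01. MSX1 was at 10.42, 10.00 and 9.81 in the vehicle cultures and 11, 10.17 and 10.18 in the same cultures with estradiol, higher in 3 of 3 (0.38, SE 0.21, adjusted p = 1). With the culture as a block their adjusted p was 0.422 and 0.377. HS3ST1 differed by -0.16 (SE 0.16) between estradiol and vehicle in receptor cells and by 0.005 in control cells.

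Genes just outside both ends of the list were examined next. On the telomere side, ZNF718 and ABCA11P lie outside ZNF721 and were at 0.22 and -0.13 in culture 2 and at 0.27 and 0.20 in culture 3 under estradiol, with 0 calls. On the centromere side, SEPSECS, which makes selenocysteine tRNA, was at -0.16 and -0.20 in cultures 2 and 3, and PI4K2B, a phosphatidylinositol kinase, at 0.01 and -0.35, with 0 calls. ANAPC4, a subunit of the anaphase-promoting complex, was at 8.67, 8.53 and 8.70 in controls and at 8.39, 7.96 and 8.08 in the cultures. It was 1.59- and 1.46-fold lower in cultures 2 and 3 (adjusted p = 0.0109 and 0.0366). SEL1L3 was at 6.38, 6.20 and 6.37 in controls and at 5.02, 4.62 and 4.80 in the cultures, all below the controls and the last pair not detected (adjusted p = 0.00043, 0.000179 and 0.000334 in cultures 1, 2 and 3). RBPJ, the DNA-binding effector of Notch signalling, was at 7.10, 7.06 and 7.11 in controls and at 7.22, 6.67 and 6.61 in the cultures, 1.33- and 1.40-fold lower in cultures 2 and 3 (adjusted p = 0.0333 and 0.0306).

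Other genes of the same stretch were described for comparison. The 30 tested genes between ZNF721 and DHX15 that are not on the list had medians of -0.03, -0.22 and -0.24, with 1, 5 and 3 called lower in cultures 1, 2 and 3. These are 3.33%, 16.7% and 10.0% of them, against 10.0%, 8.87% and 4.41% of all genes. The next 20 genes beyond DHX15, from SEPSECS to RPL9, had medians of 0.06, -0.40 and -0.34, with 1, 7 and 7 called lower (5%, 35% and 35%). The following 20, from LIAS to OCIAD2, had -0.01, -0.44 and -0.56, with 1, 11 and 11 called lower (5%, 55% and 55%). UCHL1, a neuronal ubiquitin hydrolase that lies among these, was at 11.94, 11.75 and 11.75 in controls and at 11.63, 8.99 and 9.11 in the cultures. It was 7.10- and 6.51-fold lower in cultures 2 and 3 (adjusted p = 2.5e-05 and 2.29e-05), and was picked after its values were seen. From DCUN1D4 to REST the medians were -0.35, -0.24 and -0.18, no longer with culture 1 near 0.

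**Figure D3:**
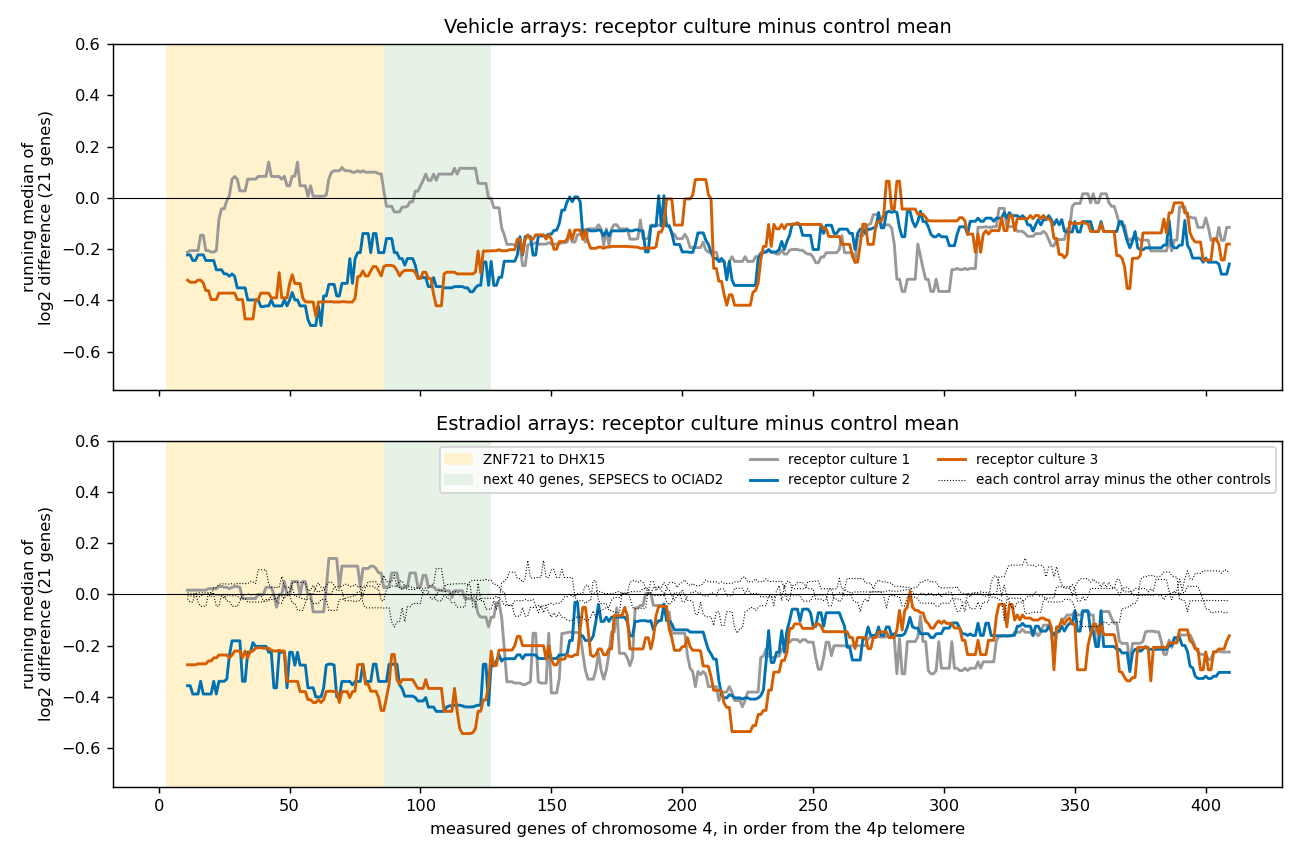
Running median over 21 measured genes of the difference of each receptor culture from the control mean (log2, vertical axis), along chromosome 4 in gene order (horizontal axis), on vehicle and on estradiol arrays; dotted lines are each estradiol control array minus the other controls. Under estradiol the lines of cultures 2 and 3 lie between -0.42 and -0.18 across the shaded stretch from ZNF721 to DHX15, that of culture 1 between -0.07 and 0.14 and the controls between -0.06 and 0.10.

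Farther along the chromosome all 3 cultures lay below control. The 293 genes beyond OCIAD2 had medians of -0.21, -0.18 and -0.19 in cultures 1, 2 and 3, and the 11819 genes on other chromosomes had -0.03, -0.03 and -0.004. The 54 listed genes and the 40 genes from SEPSECS to OCIAD2 (medians 0.02, -0.42 and -0.45) thus had a culture 1 median near 0, while that of the genes beyond OCIAD2 lay below 0, and this contrast was not tested. The boundary at OCIAD2 and the length of 20 genes were set after the values were seen, and no test was made of them.

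**Figure D4:**
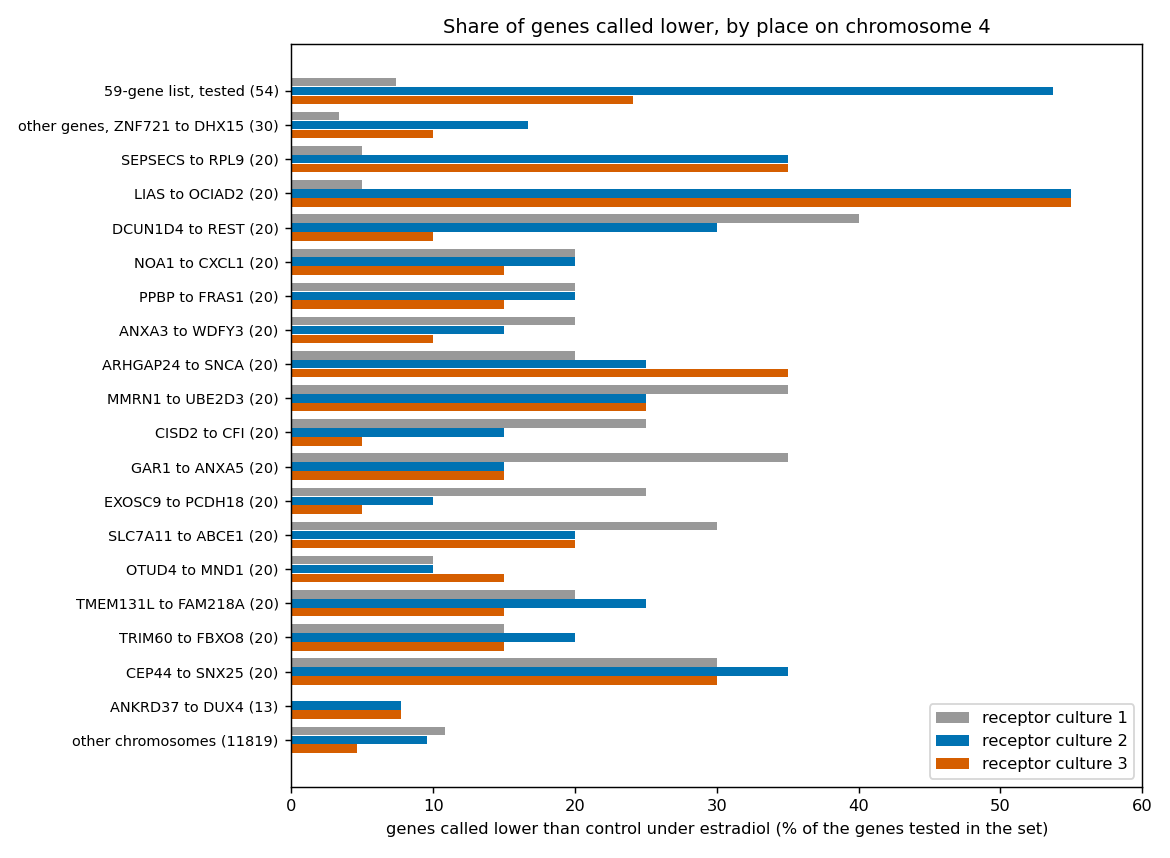
Percent of tested genes called lower than control under estradiol (horizontal axis) in each receptor culture, for the listed genes and for other gene sets in chromosome order (vertical axis, number of genes in brackets). Bars for cultures 2 and 3 reach 53.7% and 24.1% in the listed genes and 55% in LIAS to OCIAD2, where culture 1 stays at 7.41% and 5%.

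Genes outside the list whose products work with its members are given beside them. KLB, FGF2, FGF5 and UTP3 among them lie on chromosome 4, KLB in the stretch from SEPSECS to RPL9. The 122 tested partner genes, such as other condensin, Mediator, NELF, adducin and CTLH ligase subunits, had medians of 0.001, -0.003 and -0.02. In culture 2, 7 were lower (5.74%) and 9 higher (7.38%), where all genes gave 8.87% and 8.46%. In culture 3, 1 was lower (0.82%) and 2 higher (1.64%), where all genes gave 4.41% and 3.90%. The 26 Mediator partners of MED28, which was itself 1.58- and 1.40-fold lower in cultures 2 and 3 (adjusted p = 0.00653 and 0.0324), had medians of -0.10 and 0.01 there. TACC2, a relative of TACC3, was higher in all 3 cultures at 1.08, 0.92 and 0.88 log2 (adjusted p = 0.000681, 0.00211 and 0.00302). CAP2, an actin monomer regulator, was higher at 0.59, 0.82 and 1.09 (adjusted p = 0.0128, 0.00449 and 0.00183). BMI1, the Polycomb ring finger protein, was lower at -0.58, -0.44 and -0.45 (adjusted p = 0.00941, 0.0294 and 0.0424). MED28 was picked after its values were seen.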

How the data were processed

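The authors deposited a non-normalized bead summary intensity per probe and array for 47322 probes, with a detection p-value for each, and a table of normalized intensity. The submitters' processing notes name lumi, and the steps are not given in the sources used here. From the non-normalized intensity, 47321 probes (1, for CDC25C, lacked values) were processed with neqc of limma 3.58.1 (R 4.3.3), which corrects background from the deposited detection p-values, adds an offset of 16, quantile normalises and gives log2 values. Probes with a detection p-value under 0.05 on at least 3 arrays were kept, and of several probes for a gene the brightest on average stood for it, which left 15249 genes. Symbols were updated from the RefSeq table (27035 probes current, 4675 updated, 12341 kept as in the file, 3270 without a name).

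A culture fit gave each receptor array a mean of its own, so the spread came from 6 control arrays (4 residual and 4.29 prior degrees of freedom). A group fit had 1 mean per group of 3 (8 residual and 4.62 prior). Moderated two-sided limma tests were adjusted by Benjamini-Hochberg over all genes, with calls at an adjusted p under 0.05. Standard errors are the fit's. Array number limits the precision. Fold changes are on the log2 scale with the offset, which understates those of dim genes, and "at least" marks a fold against the level where detection starts.

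The members and gene lists were chosen with earlier results of these data known. Per-array values are given by rule for the 8 lowest and 4 highest members by the mean of cultures 2 and 3, the first and last member, 13 preset examples, members called in a group comparison, 5 genes beyond DHX15, and partner genes called in cultures 2 and 3. Promoter sequences are from RefSeq on GRCh38.p14. Replicate numbers paired the receptor arrays and not the control arrays (vehicle with estradiol at 0.08, 0.03 and 0.11), so the block was an alternative. A member of 1 marker list is not reported here. The fits were tested on simulated data. Figures were drawn with matplotlib 3.10.9 (Python 3.11.15).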

Additional observations from a re-analysis of the deposited data

How the results depend on the processing

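Over the other settings run, 0 named results changed direction past a threshold. Counted per gene and setting, 64 results gained a call, 59 lost one, 24 changed direction without a call and 1549 stayed. Counts below are members called lower. The share of all genes called under each setting is not set beside them, so a changed count is not read as a result about the members. For culture 1 over control the 4 became 7 with an offset of 50 and 1 with median scaling in place of the quantile step, and 2 to 4 on leaving out 1 array (2 without estradiol control 2 or 3). For culture 2 over control the 29 stayed between 27 and 31, and between 22 and 28 on leaving out 1 array. For culture 3 over control the 13 became 22 in the authors' normalized table, 23 without background correction, 20 with the offset of 50, 20 with median scaling, 21 with a trended prior and 22 with the spread also from receptor cultures, and 11 to 13 on leaving out 1 array. For culture 2 minus culture 1 the 11 became 18 among genes detected on all arrays, 25, 25, 20, 35, 23 and 28 under those settings in the same order, and 4 to 8 on leaving out 1 array (4 without vehicle control 2, 5 without any estradiol control, 6 without vehicle control 1). For culture 3 minus culture 1 the 10 became 25, 25, 20, 40, 23 and 31, and 10 to 11 on leaving out 1 array. For culture 3 minus culture 2 the 0 became 1 with the spread also from receptor cultures. For the group comparison the 6 became 1 with median scaling (HS3ST1), where the 1 higher call, MSX1, was lost too, and 2 to 9 on leaving out 1 array. Median scaling moved the median of all genes to 0.21, -0.06 and -0.13 in cultures 1, 2 and 3, where the members' medians were 0.31, -0.54 and -0.50. With it 14 members were called higher in culture 1. The share of all genes called higher there is not given, so the 14 are not read as a result about the members. The replicate block within each line left 6 members lower and 1 higher in the group comparison (RNF4 passed at an adjusted p of 0.0462, CPEB2 did not at 0.0726) and 0 in each estradiol comparison, and changed no other call. The causes were not tested. Dim members, 9 detected on fewer than 12 arrays, are limited by signal over background.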
